A study of Rattus norvegicus with 12 samples.

Results

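The jejunum of saline-gavaged rats was set against the liver of saline-gavaged rats, as the baseline tissue difference of a study on gut microbiota depletion and host drug-processing genes. The comparison used the 6 saline libraries, 3 of jejunum and 3 of liver, out of 12 in the series, and genes were joined by Ensembl rat identifier where both tissues' tables list them. Of 16531 joined genes, 33 are mitochondrial and were left out, which leaves 16498 nuclear genes. The animals were specific-pathogen-free Wistar Han rats that received saline by gavage at 5 mL/kg for 2 weeks. The series' other rats, used here once as a repeat of the tissue contrast, were gavaged over the same 2 weeks with a mixture of 5 drugs: metronidazole, neomycin and ampicillin, all at 20 g/L, amphotericin B at 0.2 g/L, and vancomycin at 10 g/L. The titles call the saline rats wild type. No genetic change is named for either treatment, and sex, age and whether both tissues came from the same rats are not given in the sources used here. The labels name triplicates without saying that each came from its own animal, so p-values measure the spread between these libraries, which may be partly technical.

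Absorbed drugs and bile acids circulate between the jejunum and the liver. The enterocyte takes up sugars, peptides, fat and vitamins through brush border transporters and is the first cell layer to oxidise, hydrolyse or export an oral drug, while the hepatocyte holds most of the body's cytochrome P450 and conjugating enzymes, makes bile acids from cholesterol and secretes plasma proteins. The organs also differ in defence: Paneth cells of the crypts release antimicrobial peptides into the gut lumen, and hepatocytes and Kupffer cells, the macrophages of the liver sinusoids, supply and use complement and acute phase proteins.

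Jejunum libraries held 3101949 to 9897257 recovered reads on joined nuclear genes, and liver libraries held 10840890 to 13704517. Mitochondrial genes took 26.8% to 80.7% of recovered jejunum reads and 6.42% to 25.0% of recovered liver reads, and the 10 most abundant nuclear genes took 4.02% to 4.73% in jejunum and 25.3% to 28.3% in liver. Levels are given as RPKM, read counts scaled by gene length and by library size times a TMM factor, in library order 1, 2 and 3. The factors were 1.71 to 1.84 in jejunum and 0.537 to 0.593 in liver. Compared with plain library size, they lower every jejunum level and raise every liver level. Marker lists matched the tissue labels: all 16 hepatocyte markers tested were lower in jejunum (21.3% of all genes tested were), and 11 of 13 enterocyte markers were higher (22.6% of all genes tested were). Albumin had 15.3, 2.19 and 14.2 RPKM in jejunum, against 63348, 45377 and 51504 RPKM in liver. Villin (Vil1), which bundles actin in microvilli, had 48.2, 75.8 and 264 RPKM in jejunum, against 0, 0 and 0 RPKM in liver. All 11 smooth muscle markers tested were higher in jejunum; their summed level was 6254, 2227 and 2209 RPKM in jejunum, against 47.8, 44.6 and 38.1 RPKM in liver.

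Jejunum library 2 stood apart from the other jejunum libraries in some cell markers, and library 1 in others. In library 2, summed Paneth cell markers were 23514 RPKM, against 5755 and 3292 RPKM in jejunum libraries 1 and 3. Its summed adipocyte markers were 645 RPKM, against 3780.1 and 4694 RPKM. The smooth muscle sum was highest in jejunum library 1, as was that of fibroblast and stellate cell markers (1449, against 511 and 686 RPKM in libraries 2 and 3). Library 1 was lowest in goblet (394, against 1515 and 1767.5 RPKM) and tuft cell markers (69.2, against 222 and 201 RPKM) and in enterocyte markers. The Paneth, enteroendocrine and intestinal stem cell sums were lowest in library 3. In liver, the adipocyte list summed to 1365, 1931 and 1824 RPKM, and 4 of its 10 members are listed for jejunum alone, among them adiponectin (Adipoq) at 385, 52.7 and 343 RPKM. The markers of pancreatic acinar cells summed to at most 31.5 RPKM in jejunum and 87.5 RPKM in liver. In whole tissue, fewer cells of a type and less RNA per cell cannot be told apart.

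**Figure D1:**
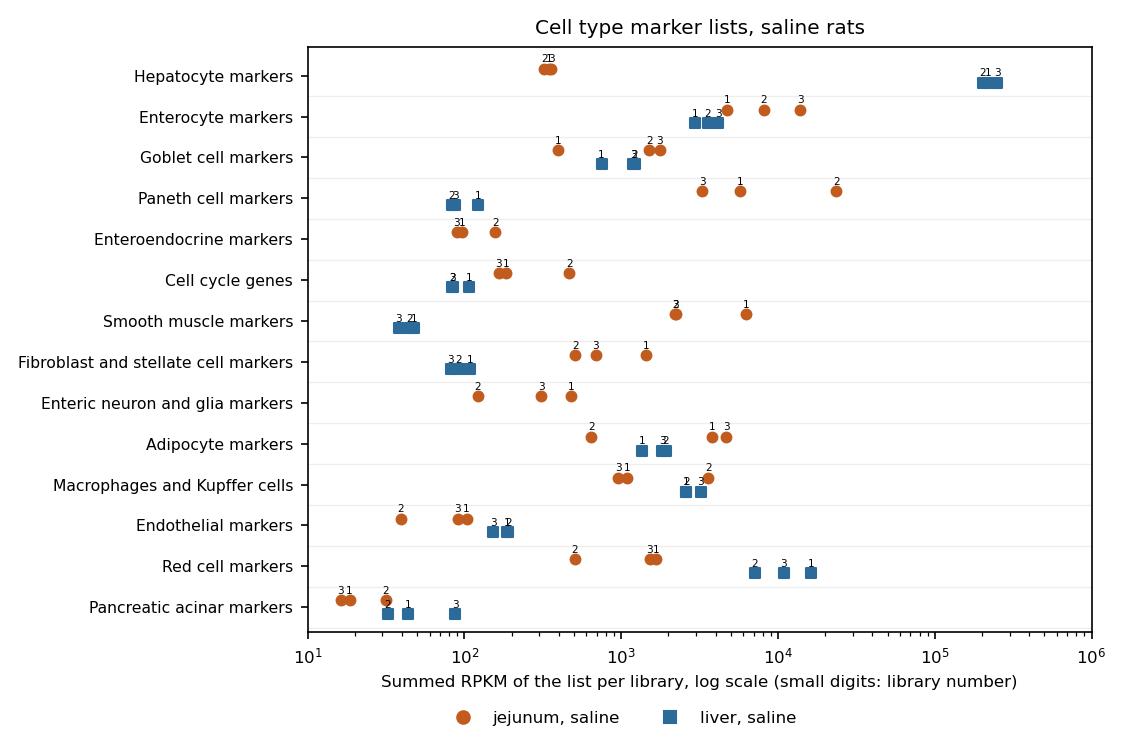
Summed level of each cell type marker list in every saline library, in RPKM on a log scale, with jejunum (circles) above liver (squares) and the library number beside each symbol. Hepatocyte markers sit between 324 and 359 RPKM in jejunum and between 201660 and 250720 RPKM in liver, and jejunum library 2 is highest in Paneth cell markers and lowest in adipocyte markers among the jejunum libraries.

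Of 13262 nuclear genes that passed the filter on low counts, 2991 (22.6%) were higher in jejunum and 2825 (21.3%) were lower, and 7446 did not pass the test (edgeR's quasi-likelihood test, Benjamini-Hochberg adjusted p under 0.05). The median log2 fold change of all genes tested, jejunum over liver, was 0.02 after TMM scaling, and 56.2% of genes tested had libraries that do not overlap between the tissues. Scaled by library totals instead, 9052 genes were higher and 961 lower, and the median of all genes was 1.64, so a difference is read relative to that median, and each list described below whose median changes sign with this choice is named there. The lists of drug, bile acid, lipid, transport and immune genes held 768 tested genes, of which 158 were higher in jejunum, 401 were lower and 209 did not pass the test; 100 more were under the filter. Both the jejunum and the liver table list genes that the other does not (2532 and 1142), which have levels but no test.

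**Figure D2:**
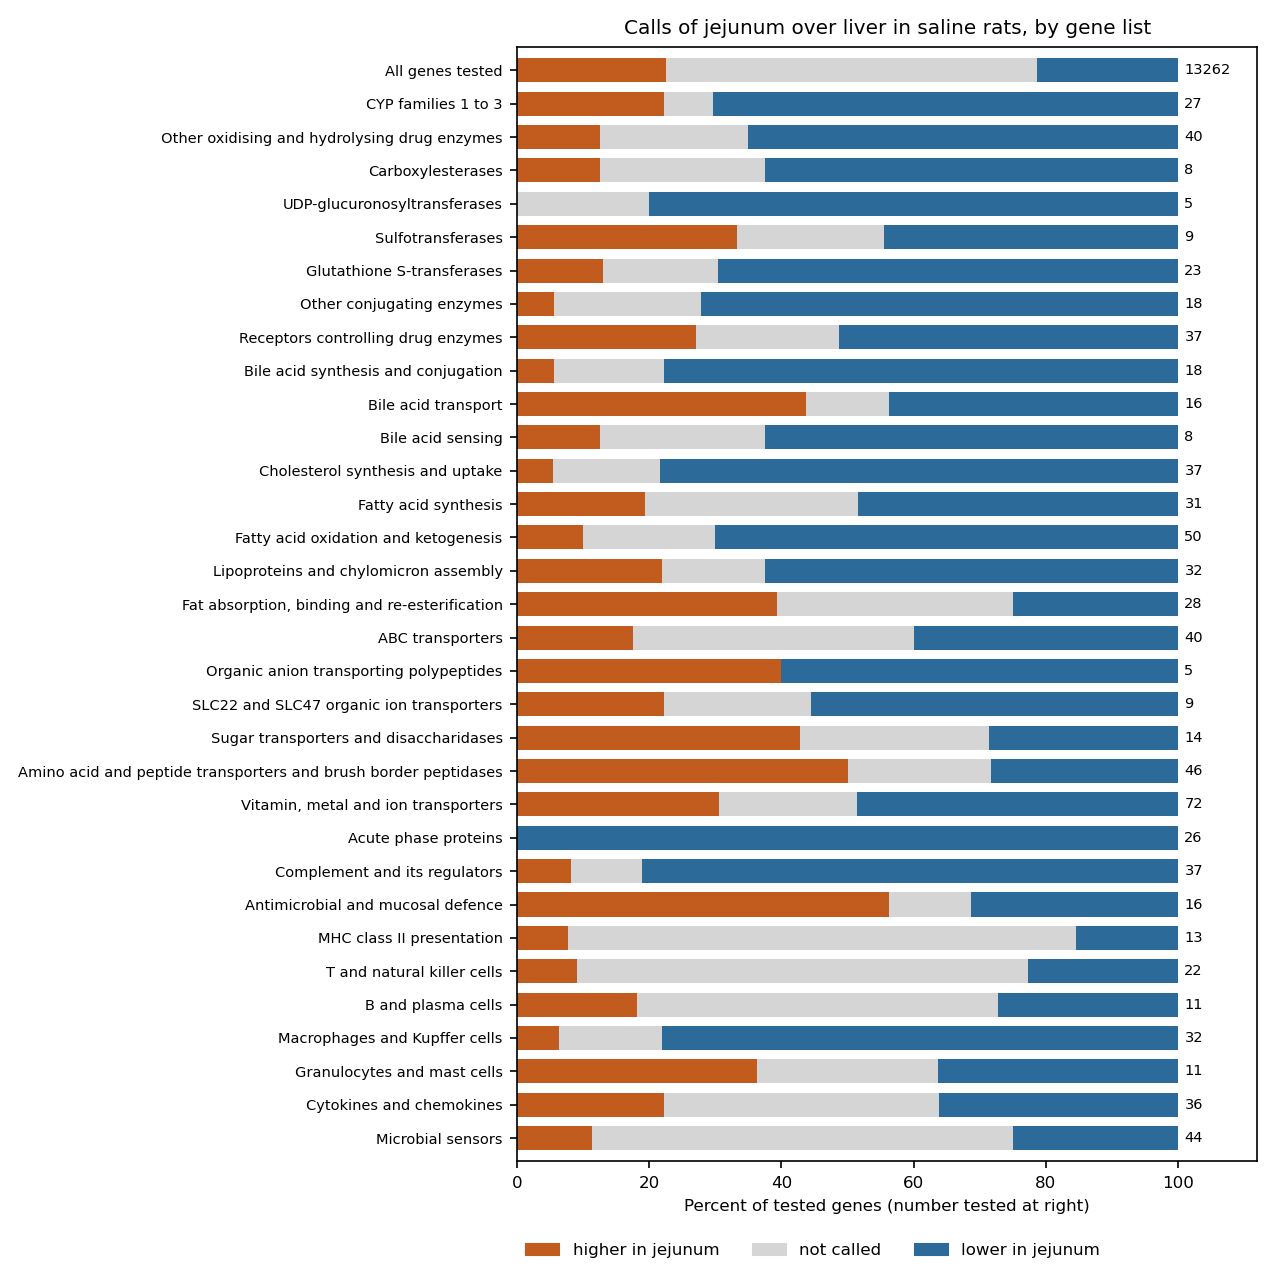
Percent of the tested members of each gene list that were higher in jejunum, not called or lower in jejunum, with the number tested at the right and all genes tested in the top row. Acute phase proteins are lower throughout, and amino acid and peptide transporters and antimicrobial genes hold the longest bars of higher genes.

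The largest log2 fold changes toward liver belonged to secreted proteins and phase I and II enzymes. The ranking took called genes with at least 5 CPM on average, no overlap between the tissues and no placeholder symbol (such as LOC or AABR). CPM are counts scaled to library size times the same TMM factor. The 8 largest log2 fold changes toward liver belonged to Mup5, Serpina3c, C9, Rup2, Sult1e1, Cyp3a23/3a1, Cyp2c23 and Ambp. Mup5, a major urinary protein made in liver, had 0, 0 and 0 RPKM in jejunum, against 8002, 1719 and 3824 RPKM in liver. No read mapped to it in any jejunum library, which makes it at least 19140-fold lower in jejunum, taking 3 reads per library as the floor. Bounds of this kind cover counting error only. The 8 largest toward jejunum were Ckmt1, Vil1, Muc13, Bcl2l15, Tnc, Prap1, Acer1 and Scg2, each at 0 reads in all 3 liver libraries. Ckmt1, a mitochondrial creatine kinase, had 164, 358 and 468 RPKM in jejunum, against 0, 0 and 0 RPKM in liver and was at least 1309-fold higher in jejunum. Prap1, a proline-rich acidic protein secreted by enterocytes, had 65.98, 162 and 145 RPKM in jejunum, against 0, 0 and 0 RPKM in liver and was at least 186-fold higher in jejunum.

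Among drug-oxidising enzymes, most genes of the cytochrome P450 families 1 to 3 were lower in jejunum. Of 27 members tested, 19 (70.4%) were lower, against 21.3% of all genes tested. A further 6 (22.2%) were higher, near the 22.6% of all genes tested. The number higher was 4 without liver library 1, and 5 without jejunum library 1 or 2 or liver library 2 or 3. The median log2 fold change was -7.70, against 0.02 over all genes tested. Their summed level was 243, 318 and 227 RPKM in jejunum, against 17228, 12829 and 13727 RPKM in liver. Cyp3a23/3a1, the CYP3A enzyme inducible through the pregnane X receptor in rat liver, had 0, 0 and 0 RPKM in jejunum, against 2058, 673 and 897 RPKM in liver (at least 9979-fold lower in jejunum). Cyp1a2, which oxidises caffeine and aromatic amines, had 0, 0 and 0 RPKM in jejunum, against 1407, 474 and 1060.1 RPKM in liver (at least 5709.6-fold lower in jejunum). Neither was detected in jejunum at these depths. Cyp2c11 had 3 jejunum reads in all, each in library 2, with 0, 0.104 and 0 RPKM in jejunum, against 914, 384 and 489 RPKM in liver (10993 times lower in jejunum, 95% counting interval 3761 to 53309). Cyp2e1, which oxidises ethanol and small solvents, had 14.2, 3.67 and 3.32 RPKM in jejunum, against 1602, 1109.6 and 1723 RPKM in liver (log2 fold change -7.70, SE 0.76, adjusted p = 2.41e-05; log2 fold change -8.69 without jejunum library 1). Cyp2d2 had 3.37, 4.86 and 0.676 RPKM in jejunum, against 1539, 1726 and 1973 RPKM in liver (log2 fold change -9.14, SE 0.76, adjusted p = 7.86e-06). All 3 liver libraries lay above all 3 jejunum libraries for each of these enzymes. Cyp3a18 kept a measurable jejunum level, with 6.56, 16.1 and 7.88 RPKM in jejunum, against 494, 270.2 and 231 RPKM in liver (log2 fold change -5.01, SE 0.50, adjusted p = 2.64e-05). Cyp2c13, listed for liver alone, had 2479, 1914 and 1432 RPKM there.

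The P450 genes that were higher in jejunum were Cyp1a1, Cyp1b1, Cyp2b1, Cyp2u1, Cyp3a9 and Cyp3a62. Cyp1a1, which the aryl hydrocarbon receptor switches on, had 30.5, 37.6 and 14.9 RPKM in jejunum, against 0.542, 0.233 and 1.13 RPKM in liver (log2 fold change 5.46, SE 0.57, adjusted p = 3.21e-05; log2 fold change 6.18 without liver library 3). Cyp2b1, the enzyme induced by phenobarbital in rat liver, had 12.5, 34.5 and 10.6 RPKM in jejunum, against 2.78, 0.7696 and 2.18 RPKM in liver (log2 fold change 3.35, SE 0.58, adjusted p = 9.34e-04; log2 fold change 2.68 without jejunum library 2). Both genes had every jejunum library above every liver library. Cyp3a9 had 70.6, 88.4 and 88.4 RPKM in jejunum, against 32.8, 31.3 and 51.7 RPKM in liver (log2 fold change 1.10, SE 0.29, adjusted p = 0.0103). Cyp3a62 had 17.6, 25.96 and 14.3 RPKM in jejunum, against 8.56, 11.7 and 3.73 RPKM in liver (log2 fold change 1.27, SE 0.42, adjusted p = 0.0316). Cyp3a9 was not called without liver library 1 or 2 (adjusted p = 0.0507 to 0.0539). Cyp3a62 was not called without jejunum library 1 or 2 or liver library 1 or 3 (adjusted p = 0.0515 to 0.114). In RPKM, Cyp3a9 stood above Cyp3a62 and Cyp3a18 in every jejunum library. Cyp2j4 did not pass the test, with 45.99, 67.2 and 55.2 RPKM in jejunum, against 50.4, 27.8 and 35.1 RPKM in liver (log2 fold change 0.57, SE 0.30, adjusted p = 0.148), and its libraries overlapped between the tissues. P450 reductase (Por), which passes electrons to all of them, had 56.5, 57.3 and 49.8 RPKM in jejunum, against 62.7, 145 and 131 RPKM in liver (log2 fold change -1.05, SE 0.34, adjusted p = 0.0299). Por was not called without jejunum library 1, 2 or 3 or liver library 2 or 3 (adjusted p = 0.0651 to 0.117). With library totals Por had a log2 fold change of 0.58. Many P450, glucuronosyltransferase, sulfotransferase, glutathione S-transferase and major urinary protein genes have near-identical copies between which reads could be split, so their single-gene values are uncertain.

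**Figure D3:**
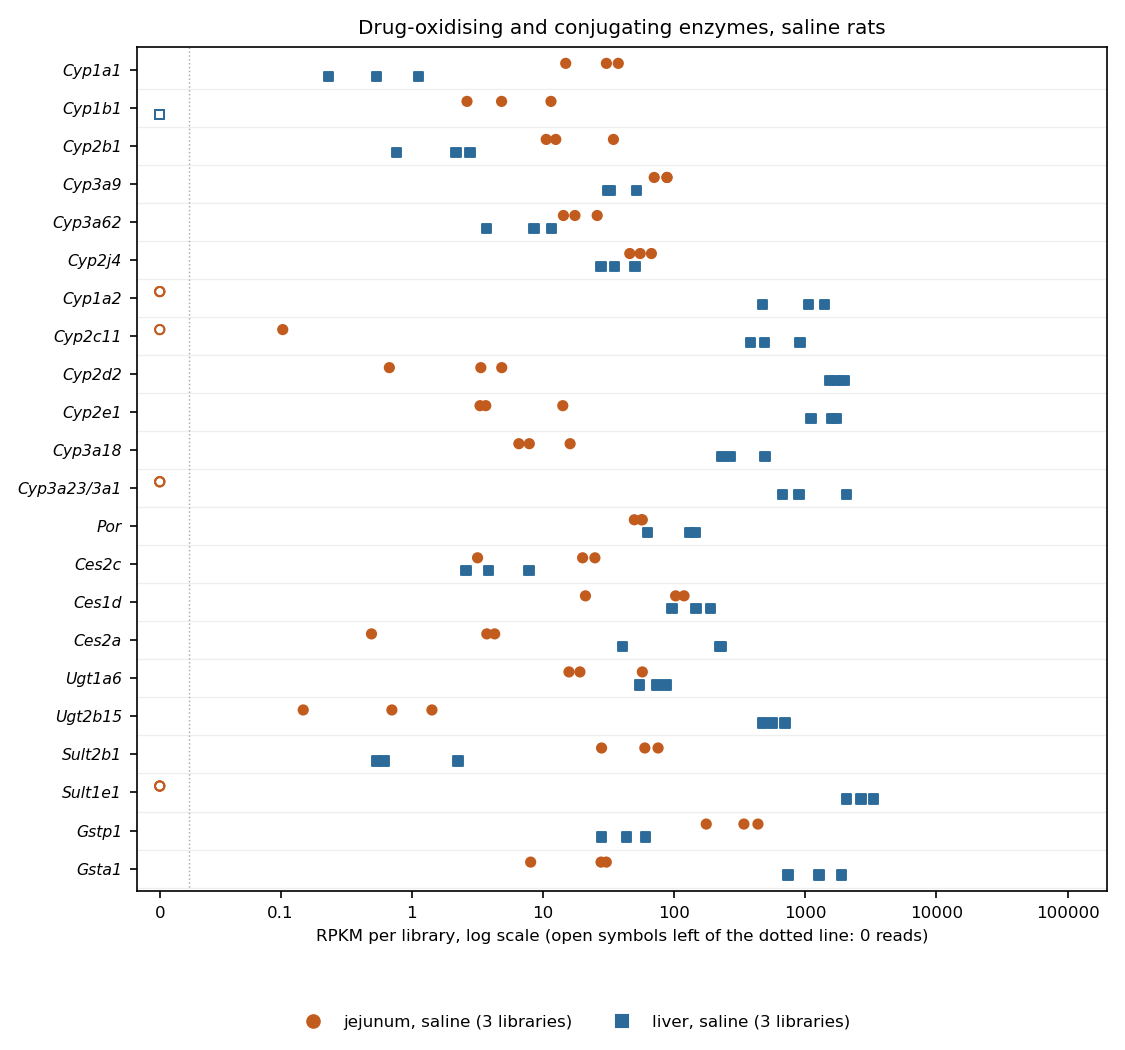
Level of drug-oxidising, hydrolysing and conjugating enzymes in every saline library, in RPKM on a log scale, with jejunum (circles) above liver (squares) and open symbols for 0 reads. Cyp1a1, Cyp1b1, Cyp2b1, Cyp3a9, Cyp3a62, Sult2b1 and Gstp1 lie to the right in jejunum, while Cyp1a2, Cyp3a23/3a1 and Sult1e1 are at 0 reads in all 3 jejunum libraries.

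Other oxidising and hydrolysing enzymes were also mostly lower in jejunum, with 26 of 40 tested lower (65%) and 5 higher (12.5%). Their median log2 fold change was -2.27, and with library totals 13 were higher and 20 lower. Paraoxonase 1 (Pon1), a lactonase that travels on HDL, had 0.495, 0.0421 and 0.269 RPKM in jejunum, against 1749.6, 1549 and 2062 RPKM in liver (log2 fold change -12.77, SE 0.80, adjusted p = 1.59e-06; log2 fold change -13.92 without jejunum library 1 and -11.96 without jejunum library 2). Aldh2, the mitochondrial enzyme that clears acetaldehyde, had 156, 174 and 162 RPKM in jejunum, against 1513, 1249.6 and 1485 RPKM in liver (log2 fold change -3.11, SE 0.38, adjusted p = 1.02e-04). The enzymes with the opposite pattern included Akr1b8, an aldo-keto reductase, with 17.4, 22.2 and 91.4 RPKM in jejunum, against 0.578, 0.398 and 0.229 RPKM in liver (log2 fold change 6.75, SE 0.76, adjusted p = 5.74e-05; log2 fold change 5.68 without jejunum library 3). Aldh1b1, a mitochondrial aldehyde dehydrogenase, had 32.1, 137 and 93.5 RPKM in jejunum, against 7.16, 7.57 and 6.05 RPKM in liver (log2 fold change 3.66, SE 0.49, adjusted p = 1.78e-04). For both, the lowest jejunum library lay above the highest liver library. The carboxylesterases, which hydrolyse ester prodrugs, were lower in 5 of 8 genes, among them Ces2a with 0.494, 3.74 and 4.29 RPKM in jejunum, against 40.7, 228 and 222 RPKM in liver (log2 fold change -5.88, SE 0.85, adjusted p = 2.88e-04). Ces2c was the one higher, with 3.18, 24.9 and 20.1 RPKM in jejunum, against 3.87, 2.59 and 7.84 RPKM in liver (log2 fold change 1.75, SE 0.65, adjusted p = 0.0489), although jejunum library 1 lay inside the liver range. Ces2c was not called without jejunum library 2 or 3 or liver library 1 or 2 (adjusted p = 0.104 to 0.156). Ces1d did not pass the test, with 119, 21.1 and 103 RPKM in jejunum, against 147, 96.3 and 191 RPKM in liver (log2 fold change -0.84, SE 0.54, adjusted p = 0.240). Its jejunum level was lowest in library 2, as the adipocyte markers were, and their part in it was not tested.

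Conjugating enzymes were mostly lower in jejunum, with a few members higher. Of 5 glucuronosyltransferases tested, 4 were lower (median -5.13), including Ugt2b15 with 0.149, 1.43 and 0.707 RPKM in jejunum, against 702, 472 and 566 RPKM in liver (log2 fold change -9.55, SE 0.89, adjusted p = 1.63e-05; log2 fold change -10.49 without jejunum library 2). Ugt1a6, which conjugates planar phenols, did not pass the test, with 19.2, 57.3 and 15.8 RPKM in jejunum, against 73.3, 54.2 and 87.7 RPKM in liver (log2 fold change -1.22, SE 0.49, adjusted p = 0.0669; log2 fold change -1.96 without jejunum library 2). Ugt1a6 passed the test without jejunum library 2 (adjusted p = 0.00206). Among sulfotransferases 4 of 9 were lower and 3 higher (median -1.63; 0.00 with library totals). Sult1e1, the estrogen sulfotransferase, had 0, 0 and 0 RPKM in jejunum, against 3300, 2061 and 2669 RPKM in liver (at least 10202-fold lower in jejunum). Sult2b1, a cholesterol and hydroxysteroid sulfotransferase, had 28.04, 59.9 and 75.6 RPKM in jejunum, against 2.26, 0.538 and 0.619 RPKM in liver (log2 fold change 5.60, SE 0.62, adjusted p = 4.78e-05; log2 fold change 6.53 without liver library 1). Sult1e1 was undetected in jejunum, and Sult2b1 had at most 2.26 RPKM in liver. Of 23 glutathione S-transferases, 16 were lower and 3 higher (median -2.10; with library totals 10 lower and 6 higher). Gsta1, an alpha-class enzyme abundant in hepatocytes, had 30.4, 8.07 and 27.8 RPKM in jejunum, against 1883, 739 and 1271 RPKM in liver (log2 fold change -5.88, SE 0.65, adjusted p = 5.03e-05). Gstp1, the pi-class enzyme, had 176, 436 and 341 RPKM in jejunum, against 60.7, 27.8 and 43.2 RPKM in liver (log2 fold change 2.86, SE 0.42, adjusted p = 3.29e-04). These family members lay in opposite order in the tissues. Glyat, which joins glycine to benzoate and salicylate, had 0, 0 and 0 RPKM in jejunum, against 189.9, 325 and 384 RPKM in liver (at least 1312-fold lower in jejunum).

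The receptors and transcription factors that control these enzymes were divided between the tissues. Of 37 tested, 10 were higher in jejunum and 19 lower (median log2 fold change -0.85), whereas with library totals 18 were higher and 5 lower (median 0.78). The pregnane X receptor (Nr1i2), which senses drugs and bile acids, had 15.8, 26.9 and 31.98 RPKM in jejunum, against 136, 93.7 and 146 RPKM in liver (log2 fold change -2.33, SE 0.35, adjusted p = 3.67e-04). The constitutive androstane receptor (Nr1i3) did not pass the test, with 14.02, 17.0 and 15.2 RPKM in jejunum, against 47.99, 12.2 and 33.9 RPKM in liver (log2 fold change -1.02, SE 0.43, adjusted p = 0.0755). Nr1i3 passed the test without liver library 2 (adjusted p = 0.005596). Hnf4a, a master regulator of both epithelia, had 16.02, 62.6 and 65.4 RPKM in jejunum, against 133, 165 and 152 RPKM in liver (log2 fold change -1.64, SE 0.48, adjusted p = 0.0185). Hnf4a was not called without liver library 2 (adjusted p = 0.0517). With library totals its log2 fold change was -0.05. Cdx2, which specifies intestinal identity, had 117, 178 and 136 RPKM in jejunum, against 0, 0.3003 and 0 RPKM in liver (log2 fold change 10.25, SE 0.72, adjusted p = 2.70e-06; log2 fold change 14.43 without liver library 2). Without liver library 2 its liver reads are all 0, so the value given without it depends on the prior count and is no bound. The vitamin D receptor (Vdr), which in the gut also binds lithocholic acid, had 15.2, 49.8 and 42.9 RPKM in jejunum, against 0.0356, 0.0828 and 0 RPKM in liver (log2 fold change 9.66, SE 0.74, adjusted p = 4.72e-06; log2 fold change 10.81 without liver library 2). Hnf4g, the intestinal relative of Hnf4a, had 7.96, 14.9 and 40.7 RPKM in jejunum, against 0.409, 0.911 and 0.182 RPKM in liver (log2 fold change 5.35, SE 0.72, adjusted p = 1.94e-04; log2 fold change 4.52 without jejunum library 3 and 6.14 without liver library 2). Cdx2, Vdr and Hnf4g were near or below 1 RPKM in every liver library. Isx, a homeobox factor that in mouse intestine represses vitamin A uptake, is listed for jejunum alone, at 6.901, 14.96 and 18.6 RPKM.

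Promoters of genes on each side of this split are printed because they hold short motifs of these factors. RefSeq promoter sequences (GRCr8 build, 250 bases before to 50 after the start, 33469 promoters) were searched on both strands for CAAAGTCCA, a binding motif of HNF4, and CAATAAAA, a motif of the CDX factors. The motifs differ in letters and were counted separately. Of all promoters, 0.391% held the HNF4 motif and 1.83% the CDX motif. Of 2099 genes higher in jejunum with a promoter in the table, 0.476% (10 genes) held the HNF4 motif and 0.762% (16 genes) the CDX motif. Of 2012 genes lower in jejunum, 0.746% (15 genes) held the HNF4 motif and 0.994% (20 genes) the CDX motif. Of 5122 genes not called, 0.215% (11 genes) held the HNF4 motif and 0.957% (49 genes) the CDX motif. These shares are a description of letters in this window. The sequences run 5′ to 3′ on the gene's strand, with the motif match in capitals; the promoters are those of Slc3a1, Si and Baat. Slc3a1 (a cystine transporter subunit, higher in jejunum; chr6:15394700-15394999, minus strand) holds the HNF4 motif. Si (sucrase-isomaltase, listed for jejunum alone; chr2:159884853-159885152, minus strand) holds the CDX motif. Baat (the bile acid conjugating enzyme, lower in jejunum; chr5:68656088-68656387, minus strand) holds the HNF4 motif.
Slc3a1: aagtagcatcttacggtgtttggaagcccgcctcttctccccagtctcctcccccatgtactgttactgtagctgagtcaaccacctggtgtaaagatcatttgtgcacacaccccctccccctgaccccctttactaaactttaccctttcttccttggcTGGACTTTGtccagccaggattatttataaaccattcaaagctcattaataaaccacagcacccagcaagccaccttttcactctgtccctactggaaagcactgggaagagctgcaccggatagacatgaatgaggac
Si: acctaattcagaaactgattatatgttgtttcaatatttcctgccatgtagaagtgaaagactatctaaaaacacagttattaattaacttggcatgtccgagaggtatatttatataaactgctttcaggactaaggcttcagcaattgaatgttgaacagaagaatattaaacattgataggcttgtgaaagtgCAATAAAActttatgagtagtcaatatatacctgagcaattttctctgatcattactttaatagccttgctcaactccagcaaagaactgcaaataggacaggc
Baat: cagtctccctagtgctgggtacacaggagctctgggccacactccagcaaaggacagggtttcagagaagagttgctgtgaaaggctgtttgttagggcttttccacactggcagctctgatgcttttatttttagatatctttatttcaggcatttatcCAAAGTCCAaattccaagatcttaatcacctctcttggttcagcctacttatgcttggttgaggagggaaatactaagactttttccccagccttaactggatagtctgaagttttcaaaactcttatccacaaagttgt

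In bile acid metabolism, most synthesis and conjugation genes were lower in jejunum, the genes of a broad transport list were evenly divided, and most sensors were lower. Of 18 synthesis and conjugation genes tested, 14 were lower in jejunum and 1 was higher (median log2 fold change -3.31; 2 higher without jejunum library 2 and 0 without jejunum library 3 or liver library 1, 2 or 3). Cyp7a1, the rate-limiting enzyme of the classical pathway, and Cyp8b1, which makes the cholic acid branch, are listed for liver alone, at 128, 64.7 and 157 RPKM and at 174, 345 and 275 RPKM. Cyp27a1, which starts the acidic pathway, had 4.002, 7.51 and 8.62 RPKM in jejunum, against 283, 234 and 404 RPKM in liver (log2 fold change -5.52, SE 0.45, adjusted p = 6.50e-06). Slc27a5, the bile acyl-CoA synthetase, had 0, 0.102 and 0.569 RPKM in jejunum, against 337, 389 and 565 RPKM in liver (log2 fold change -11.36, SE 0.90, adjusted p = 5.68e-06; log2 fold change -10.68 without jejunum library 1 and -12.66 without jejunum library 3). Baat, which joins taurine or glycine to the activated bile acid and whose promoter is printed above, had 0, 0.312 and 1.22 RPKM in jejunum, against 1779, 1536 and 1820.4 RPKM in liver (log2 fold change -12.03, SE 1.03, adjusted p = 9.24e-06; log2 fold change -11.34 without jejunum library 1 and -13.14 without jejunum library 3). The 2 conjugating genes reached at most 1.22 RPKM in any jejunum library, while Cyp27a1 had 4.002 to 8.62 RPKM.

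Of 16 genes tested in the bile acid transport list, 7 were higher in jejunum and 7 were lower. The median was 0.03 (-0.09 without jejunum library 1 and -0.16 without liver library 3). The list reaches beyond carriers of bile acids themselves. It counts Atp8b1, Slc26a6, Cftr and Aqp1 among the higher genes and Abcb4, Tmem30a and Aqp8 among the lower, so its balance is not that of bile acid carriers alone. The bile salt export pump (Abcb11), which secretes bile salts into the canaliculus, had 0.0517, 0.0586 and 0 RPKM in jejunum, against 96.1, 164 and 146 RPKM in liver (log2 fold change -11.46, SE 0.60, adjusted p = 9.60e-07). Ntcp (Slc10a1), which takes them up from portal blood, had 0, 0.425 and 0.3399 RPKM in jejunum, against 605, 434 and 508 RPKM in liver (log2 fold change -10.92, SE 0.76, adjusted p = 2.60e-06; log2 fold change -10.28 without jejunum library 1 and -11.95 without jejunum library 2). Abcc2, an apical exporter of conjugates, had 1.41, 1.401 and 1.05 RPKM in jejunum, against 28.3, 113 and 58.7 RPKM in liver (log2 fold change -5.68, SE 0.54, adjusted p = 1.79e-05; log2 fold change -5.08 without liver library 2). These exit and entry routes of the hepatocyte were at low levels in jejunum. The basolateral exporter of enterocytes, OST, had the reverse pattern: its alpha subunit (Slc51a) had 109, 126 and 96.3 RPKM in jejunum, against 0.0991, 0.307 and 0 RPKM in liver (log2 fold change 9.51, SE 0.57, adjusted p = 1.36e-06; log2 fold change 10.96 without liver library 2). Its beta subunit (Slc51b) is listed for jejunum alone, at 86.3, 154 and 144 RPKM. The apical uptake transporter of the ileum, Asbt (Slc10a2), was under the filter, with 0.127, 0 and 0 RPKM in jejunum, against 0.0774, 0.1799 and 0.345 RPKM in liver. Fabp6, the ileal bile acid binding protein, is listed for jejunum alone, at 12.2, 2.199 and 12.7 RPKM. Abcc3, a basolateral exporter, had 1.38, 1.76 and 1.23 RPKM in jejunum, against 0.371, 0.596 and 0.803 RPKM in liver (log2 fold change 1.30, SE 0.48, adjusted p = 0.0485). Abcc3 was not called without jejunum library 1 or 2 or liver library 1, 2 or 3 (adjusted p = 0.0697 to 0.155). Abcg2, an apical exporter of sulfates and many drugs, had 14.2, 23.2 and 17.2 RPKM in jejunum, against 9.32, 2.15 and 2.27 RPKM in liver (log2 fold change 2.00, SE 0.53, adjusted p = 0.0113; log2 fold change 3.03 without liver library 1).

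Of 8 bile acid sensing genes tested, 5 were lower in jejunum and 1 was higher (median -1.76; with library totals -0.15, 2 lower and 2 higher). The bile acid receptor FXR (Nr1h4) had 1.37, 5.51 and 5.06 RPKM in jejunum, against 67.3, 46.9 and 45.6 RPKM in liver (log2 fold change -3.75, SE 0.49, adjusted p = 1.47e-04). Its target Nr0b2, the corepressor SHP, had 5.07, 10.5 and 9.67 RPKM in jejunum, against 140.4, 16.5 and 44.1 RPKM in liver (log2 fold change -2.99, SE 0.67, adjusted p = 0.00441; log2 fold change -1.86 without liver library 1). Fgfr4, the hepatocyte receptor for the ileal hormone FGF15/19, had 2.54, 5.47 and 1.69 RPKM in jejunum, against 32.3, 26.8 and 23.1 RPKM in liver (log2 fold change -3.06, SE 0.42, adjusted p = 2.17e-04). All 3 were lower in jejunum with no overlap between the tissues. The gene for that hormone, entered as Fgf19, is listed for jejunum alone with 0 reads in all 3 libraries. The membrane receptor Gpbar1, under the filter, had 1.93, 0.357 and 0.381 RPKM in jejunum, against 0, 0 and 0 RPKM in liver.

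**Figure D4:**
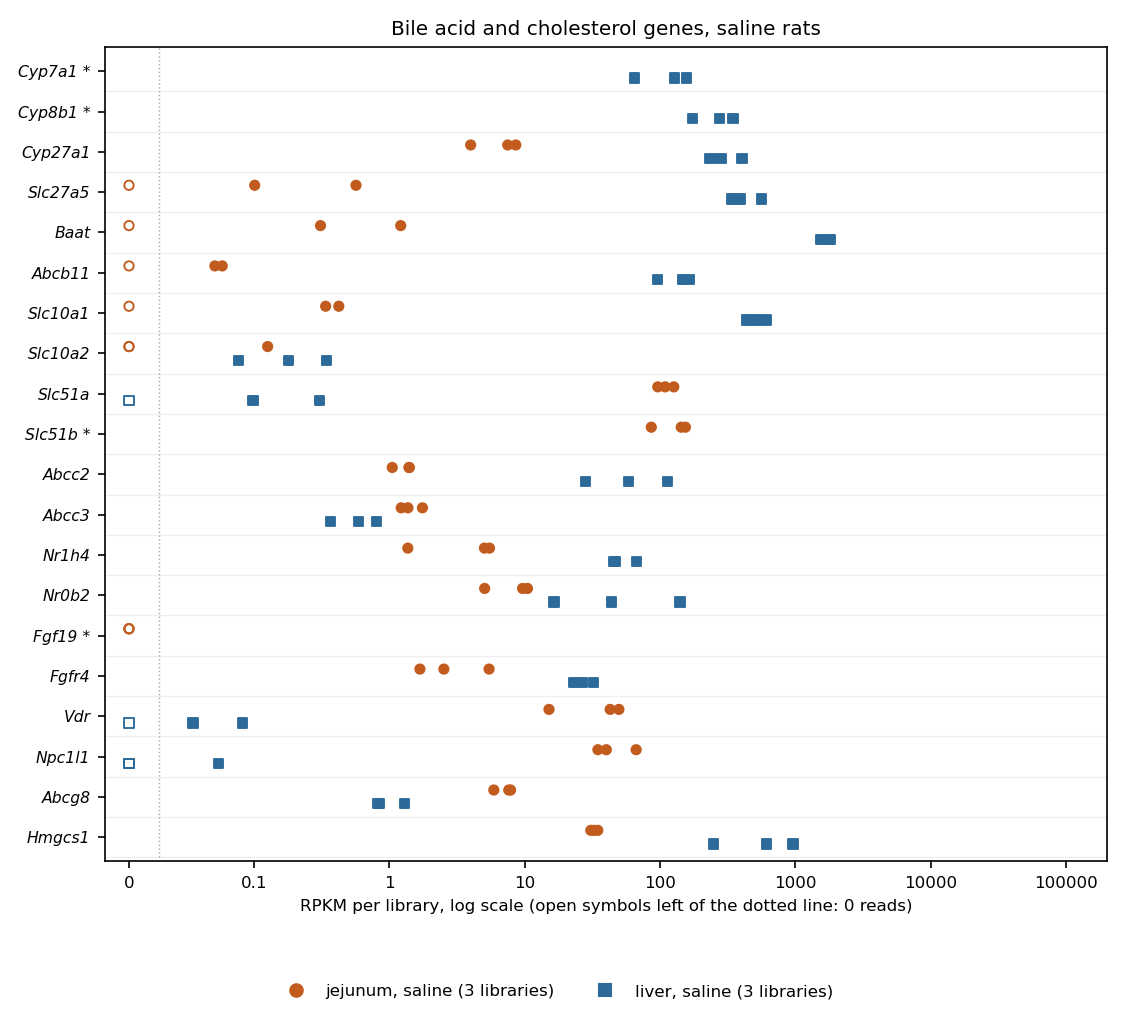
Level of bile acid and cholesterol genes in every saline library, in RPKM on a log scale, with jejunum (circles) above liver (squares), open symbols for 0 reads and an asterisk for a gene listed for one tissue alone. Synthesis genes and Abcb11 and Slc10a1 lie to the right in liver, while Slc51a, Vdr, Npc1l1 and Abcg8 lie to the right in jejunum.

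Cholesterol genes were lower in jejunum in most steps, with sterol uptake from the gut as the exception. Of 37 genes tested, 29 were lower and 2 were higher (median log2 fold change -2.93; with library totals 7 higher and 21 lower). Hmgcs1, which makes HMG-CoA for sterol synthesis, had 34.7, 32.4 and 30.9 RPKM in jejunum, against 249, 610.0 and 961 RPKM in liver (log2 fold change -4.21, SE 0.54, adjusted p = 1.27e-04). Ebp, a late sterol isomerase, had 11.4, 29.03 and 13.4 RPKM in jejunum, against 636, 572 and 950.1 RPKM in liver (log2 fold change -5.32, SE 0.49, adjusted p = 1.45e-05). Both genes had all liver libraries above all jejunum libraries. Npc1l1, the sterol importer of the brush border and target of ezetimibe, had 40.2, 66.7 and 34.8 RPKM in jejunum, against 0, 0.0552 and 0 RPKM in liver (2524 times higher in jejunum, 95% counting interval 698 to 20844). Abcg8, a subunit of the pump that returns plant sterols to the lumen, had 7.89, 7.65 and 5.93 RPKM in jejunum, against 0.843, 0.8297 and 1.30 RPKM in liver (log2 fold change 2.85, SE 0.34, adjusted p = 8.17e-05). Its partner Abcg5 did not pass the test, with 6.88, 8.62 and 10.7 RPKM in jejunum, against 8.23, 6.63 and 7.62 RPKM in liver (log2 fold change 0.22, SE 0.30, adjusted p = 0.596).

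Fatty acid synthesis and oxidation were also lower in jejunum for most genes called, while the enzyme that uses ketone bodies was higher. Of 31 synthesis genes, 15 were lower and 6 higher (median -1.18; 0.45 with library totals). Of 50 oxidation and ketogenesis genes, 35 were lower and 5 higher (median -1.50; 0.11 with library totals, 15 lower and 14 higher). Fads2, the first desaturase of polyunsaturated fat, had 5.36, 6.29 and 3.88 RPKM in jejunum, against 118, 376 and 187 RPKM in liver (log2 fold change -5.44, SE 0.50, adjusted p = 1.39e-05). Malic enzyme (Me1), a source of NADPH, was higher, with 67.2, 61.8 and 86.5 RPKM in jejunum, against 25.8, 11.9 and 16.2 RPKM in liver (log2 fold change 2.00, SE 0.34, adjusted p = 8.51e-04). Fatty acid synthase (Fasn) did not pass the test, with 59.2, 13.7 and 16.2 RPKM in jejunum, against 51.8, 51.5 and 77.3 RPKM in liver (log2 fold change -1.02, SE 0.53, adjusted p = 0.147; log2 fold change -1.99 without jejunum library 1). Fasn passed the test without jejunum library 1 (adjusted p = 0.00203). Cyp4a2, an omega-hydroxylase, had 0, 0 and 0 RPKM in jejunum, against 896, 776 and 496 RPKM in liver (at least 4704-fold lower in jejunum). Oxct1, which burns ketone bodies and which hepatocytes lack, had 81.1, 50.03 and 36.96 RPKM in jejunum, against 1.33, 0.813 and 1.104 RPKM in liver (log2 fold change 5.70, SE 0.42, adjusted p = 3.42e-06). Cpt1b, the muscle form of the mitochondrial fatty acid gate, had 7.15, 2.32 and 3.84 RPKM in jejunum, against 0.797, 0.228 and 0.785 RPKM in liver (log2 fold change 2.89, SE 0.61, adjusted p = 0.00305), and in jejunum it was highest in library 1, where the smooth muscle sum was highest too; the part of muscle in it was not tested.

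Lipoprotein genes separated the 2 organs that secrete apolipoprotein B. Of 32 genes tested, 20 were lower in jejunum and 7 higher (median log2 fold change -1.88). Apob, the core protein of chylomicrons and VLDL, had 31.8, 51.98 and 30.1 RPKM in jejunum, against 436, 534 and 553 RPKM in liver (log2 fold change -3.74, SE 0.52, adjusted p = 2.25e-04). Mttp, which loads lipid onto it, did not pass the test, with 89.8, 262 and 91.9 RPKM in jejunum, against 99.8, 98.9 and 104 RPKM in liver (log2 fold change 0.55, SE 0.44, adjusted p = 0.338; log2 fold change -0.09 without jejunum library 2), and its libraries overlapped. Apoe, a ligand for remnant uptake, had 253, 65.2 and 152 RPKM in jejunum, against 27936, 17384 and 27393 RPKM in liver (log2 fold change -7.27, SE 0.94, adjusted p = 1.43e-04). Apoa1, the main protein of HDL, had 796, 1238 and 1204 RPKM in jejunum, against 3029.9, 2996 and 4307 RPKM in liver (log2 fold change -1.67, SE 0.42, adjusted p = 0.00781). With library totals Apoa1 had a log2 fold change of -0.05. Apoa4, a chylomicron protein, was the higher one, with 332, 296 and 396 RPKM in jejunum, against 225, 167 and 178 RPKM in liver (log2 fold change 0.84, SE 0.30, adjusted p = 0.0408). Apoa4 was not called without jejunum library 3 or liver library 1, 2 or 3 (adjusted p = 0.0632 to 0.183). Hepatic lipase (Lipc) had 0, 0 and 0 RPKM in jejunum, against 161, 211 and 271 RPKM in liver (at least 1141-fold lower in jejunum). Lipoprotein lipase (Lpl), made by fat and muscle, had 174, 30.1 and 133 RPKM in jejunum, against 6.66, 3.12 and 1.62 RPKM in liver (log2 fold change 4.89, SE 0.72, adjusted p = 3.54e-04; log2 fold change 5.55 without liver library 1). Among the jejunum libraries Lpl was lowest in library 2, as was the adipocyte list, of which 4 of 6 tested genes were higher in jejunum; the part of fat cells in it was not tested.

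Fat absorption genes leaned toward jejunum, with 11 of 28 tested higher (39.3%) and 7 lower (25%), against 22.6% and 21.3% of all genes tested. Their median was 0.60, and with library totals 20 were higher and 5 lower. Fabp2, the intestinal fatty acid binding protein, had 2241, 3084 and 6683 RPKM in jejunum, against 1.99, 7.09 and 3.19 RPKM in liver (log2 fold change 9.89, SE 0.75, adjusted p = 4.16e-06; log2 fold change 10.55 without liver library 2). Fabp1, the liver form, was high in both, with 937, 1392 and 6238 RPKM in jejunum, against 16320, 11835 and 13656 RPKM in liver (log2 fold change -2.29, SE 0.72, adjusted p = 0.0252; log2 fold change -3.52 without jejunum library 3). Fabp1 was not called without jejunum library 1 or 2 or liver library 1 or 3 (adjusted p = 0.0538 to 0.0618). In RPKM, Fabp2 stood above Fabp1 in every jejunum library and below it in every liver library. Mogat2, which rebuilds diacylglycerol from absorbed monoacylglycerol, had 11.3, 40.6 and 19.2 RPKM in jejunum, against 0.0909, 0.141 and 0.243 RPKM in liver (log2 fold change 7.15, SE 0.66, adjusted p = 1.57e-05; log2 fold change 6.54 without jejunum library 2). Dgat1, which makes triglyceride, had 243, 300.4 and 183 RPKM in jejunum, against 26.0, 27.8 and 35.5 RPKM in liver (log2 fold change 3.02, SE 0.32, adjusted p = 3.98e-05), and its counterpart Dgat2 had 103, 48.5 and 81.9 RPKM in jejunum, against 262, 303 and 373 RPKM in liver (log2 fold change -2.01, SE 0.38, adjusted p = 0.00166). The 2 acyltransferases lay in opposite order. The same held for the fatty acid transport proteins Slc27a4, with 141, 165 and 91.97 RPKM in jejunum, against 4.71, 5.54 and 4.61 RPKM in liver (log2 fold change 4.74, SE 0.35, adjusted p = 3.76e-06), and Slc27a2, with 0.205, 0.0398 and 0.255 RPKM in jejunum, against 1148, 582 and 815 RPKM in liver (log2 fold change -12.50, SE 0.78, adjusted p = 1.59e-06; log2 fold change -11.78 without jejunum library 2). Fabp4, the fat cell form, had 1772, 284 and 2404 RPKM in jejunum, against 2.86, 2.21 and 2.54 RPKM in liver (log2 fold change 9.19, SE 0.87, adjusted p = 1.79e-05); it moved among the jejunum libraries with the adipocyte list that holds it.

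In the transporter families that include drug carriers, more genes were lower in jejunum than higher, though for ABC transporters library totals reversed this. Of all genes tested, 21.3% were lower and 22.6% higher. Of 40 ABC transporters, 16 (40%) were lower, 7 (17.5%) higher and 17 not called. Their median was -0.29 (1.32 with library totals, 22 higher and 11 lower). The ABC list is not of drug carriers alone, and holds Abcd3, also in the fatty acid oxidation list. Of 9 organic ion transporters of the SLC22 and SLC47 families, 5 (55.6%) were lower and 2 (22.2%) higher. Their median was -2.72, and 1 was higher without jejunum library 1 or 2 or liver library 1, 2 or 3. Slc22a3, the cation transporter OCT3, had 8.11, 2.44 and 4.87 RPKM in jejunum, against 0.137, 0.141 and 0.0406 RPKM in liver (log2 fold change 5.54, SE 0.68, adjusted p = 1.03e-04). The organic anion transporters had 5 members tested, 3 (60%) lower and 2 (40%) higher (1 higher without jejunum library 2 or liver library 1 or 2). Slco1b2, the statin uptake carrier of hepatocytes, is listed for liver alone, at 136, 174 and 166 RPKM. Slco2b1, present in both epithelia, had 7.74, 13.6 and 7.19 RPKM in jejunum, against 53.8, 67.8 and 61.05 RPKM in liver (log2 fold change -2.67, SE 0.33, adjusted p = 1.06e-04). Slco3a1 had 16.4, 7.25 and 9.59 RPKM in jejunum, against 1.64, 0.348 and 0.533 RPKM in liver (log2 fold change 3.74, SE 0.58, adjusted p = 4.85e-04; log2 fold change 4.64 without liver library 1).

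Nutrient carriers and peptidases of the brush border leaned toward jejunum. Of 46 amino acid and peptide genes, 23 were higher and 13 lower (median 1.30; with library totals 28 higher and 7 lower). The proton-peptide carrier Pept1 (Slc15a1), which also absorbs beta-lactam antibiotics, had 9.43, 20.5 and 20.9 RPKM in jejunum, against 0, 0 and 0 RPKM in liver (at least 121-fold higher in jejunum). The neutral amino acid carrier Slc6a19 is listed for jejunum alone, at 12.4, 18.1 and 14.7 RPKM. The cystine transporter is built of Slc3a1 and Slc7a9: Slc3a1 had 15.6, 18.5 and 16.5 RPKM in jejunum, against 0.8796, 1.47 and 0.362 RPKM in liver (log2 fold change 4.20, SE 0.46, adjusted p = 4.64e-05), and Slc7a9 had 10.8, 41.3 and 20.2 RPKM in jejunum, against 0.186, 0 and 0 RPKM in liver (508 times higher in jejunum, 95% counting interval 140.3 to 4194). Both subunits were at most 1.47 RPKM in liver. In the other direction, the glutamine carrier Slc38a3 had 0.394, 0.268 and 0.3896 RPKM in jejunum, against 519.6, 849 and 734 RPKM in liver (log2 fold change -10.98, SE 0.55, adjusted p = 9.60e-07).

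Of 14 sugar genes tested, 6 were higher and 4 lower in jejunum, with a median near 0 (-0.03). Another 8 of the list, Si among them, are listed for jejunum alone and 0 for liver alone, so these 8 enter neither the counts nor the median. The median became 1.58 with library totals and 0.17 to 0.45 without jejunum library 1 or 3 or liver library 1, 2 or 3. Without liver library 3, 2 were lower. The sodium-glucose carrier Sglt1 (Slc5a1) had 25.2, 107 and 56.3 RPKM in jejunum, against 0.215, 0.459 and 0.384 RPKM in liver (log2 fold change 7.43, SE 0.63, adjusted p = 8.76e-06; log2 fold change 6.84 without jejunum library 2). Glut2 (Slc2a2), the basolateral carrier of both organs, had 13.2, 44.8 and 22.5 RPKM in jejunum, against 188, 166 and 204 RPKM in liver (log2 fold change -2.79, SE 0.44, adjusted p = 5.44e-04). The fructose carrier Glut5 (Slc2a5) did not pass the test, with 2.08, 8.29 and 2.48 RPKM in jejunum, against 4.49, 6.199 and 5.86 RPKM in liver (log2 fold change -0.35, SE 0.52, adjusted p = 0.625; log2 fold change 0.02 without jejunum library 1 and -1.22 without jejunum library 2). Slc2a5 passed the test without jejunum library 2 (adjusted p = 0.0386). The sucrase-isomaltase gene (Si), whose promoter is printed above, is listed for jejunum alone, at 14.2, 63.8 and 92.5 RPKM. Lactase (Lct) is likewise listed there, at 19.2, 52.4 and 48.7 RPKM. Jejunum library 1 was the lowest for Slc5a1, Slc2a2, Si and Lct.

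**Figure D5:**
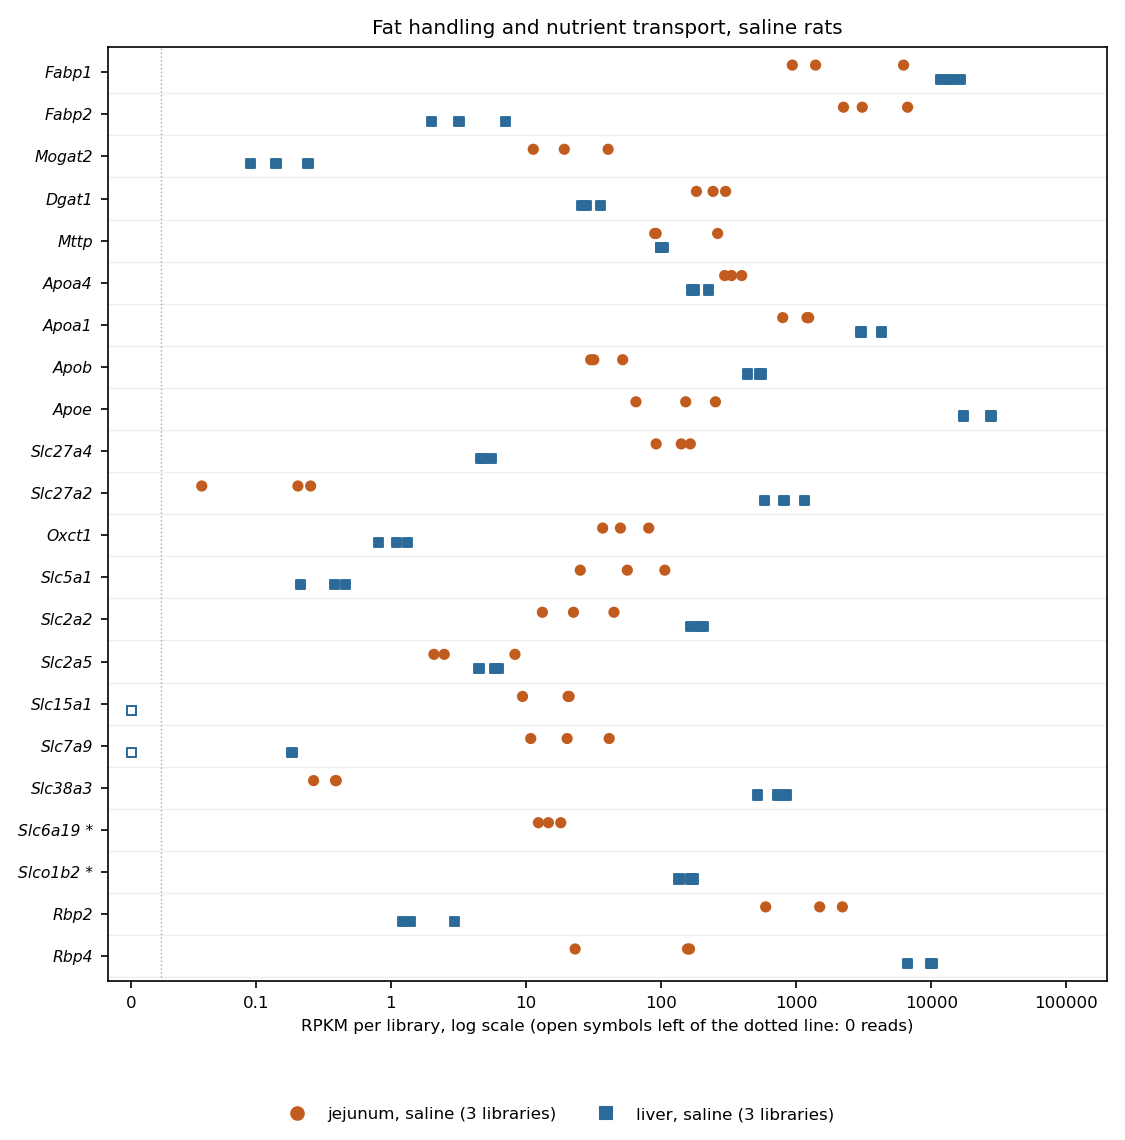
Level of fat handling and nutrient transport genes in every saline library, in RPKM on a log scale, with jejunum (circles) above liver (squares), open symbols for 0 reads and an asterisk for a gene listed for one tissue alone. Fabp2, Mogat2, Slc5a1, Slc15a1 and Rbp2 lie to the right in jejunum, Apoe, Slc27a2, Slc38a3 and Rbp4 in liver, and Mttp overlaps.

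Among vitamin, metal and ion genes, 22 of 72 were higher in jejunum and 35 lower (median -0.86; 0.75 with library totals, 36 higher and 20 lower). Uptake proteins and plasma carriers lay on opposite sides. Rbp2, the retinol binding protein of enterocytes, had 595, 1494 and 2199 RPKM in jejunum, against 2.95, 1.22 and 1.401 RPKM in liver (log2 fold change 9.60, SE 0.71, adjusted p = 3.76e-06), and Rbp4, its plasma counterpart, had 162, 23.1 and 157 RPKM in jejunum, against 9848, 6674 and 10154 RPKM in liver (log2 fold change -6.28, SE 0.84, adjusted p = 1.82e-04). Amn, part of the receptor for intrinsic factor and vitamin B12, had 25.1, 28.3 and 27.1 RPKM in jejunum, against 0, 0 and 0 RPKM in liver (at least 111-fold higher in jejunum). Hephaestin (Heph), the ferroxidase of iron export from enterocytes, had 20.6, 30.2 and 16.4 RPKM in jejunum, against 0.363, 0.422 and 0.388 RPKM in liver (log2 fold change 5.83, SE 0.37, adjusted p = 1.62e-06). Transferrin (Tf), which carries iron in plasma, had 24.8, 14.5 and 18.4 RPKM in jejunum, against 10159, 23230 and 22102 RPKM in liver (log2 fold change -9.91, SE 1.08, adjusted p = 4.54e-05), and hepcidin (Hamp), the hormone that blocks iron export, had 2.41, 0.983 and 1.57 RPKM in jejunum, against 7299, 1584 and 1284 RPKM in liver (log2 fold change -11.00, SE 0.97, adjusted p = 1.14e-05; log2 fold change -9.78 without liver library 1). In liver, library 1 was the highest for hepcidin and the lowest for transferrin. Guca2a, the guanylin precursor that regulates gut salt and water, had 107, 147 and 470.4 RPKM in jejunum, against 0.6995, 0 and 0.156 RPKM in liver (log2 fold change 9.78, SE 0.92, adjusted p = 1.67e-05; log2 fold change 8.92 without jejunum library 3, 11.43 without liver library 1 and 9.12 without liver library 2).

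Plasma proteins of innate defence were lower in jejunum. All 26 acute phase genes tested were lower in jejunum (median log2 fold change -15.00). Of these, 25 were lower without jejunum library 2 or 3 or with library totals, and without liver library 2 only 25 were tested. Of 37 complement genes, 30 were lower and 3 higher (median -5.19). Haptoglobin (Hp), which binds free hemoglobin, had 2.87, 0.849 and 0 RPKM in jejunum, against 51989, 64645 and 85483 RPKM in liver (log2 fold change -15.61, SE 1.64, adjusted p = 3.57e-05; log2 fold change -16.81 without jejunum library 1). C3, the central complement component, had 0.251, 0.0455 and 0.509 RPKM in jejunum, against 4601, 7298 and 6507 RPKM in liver (log2 fold change -14.67, SE 1.29, adjusted p = 1.13e-05; log2 fold change -13.99 without jejunum library 2 and -15.32 without jejunum library 3). C9, which forms the membrane pore, had 0, 0 and 0 RPKM in jejunum, against 1861, 2572 and 2005 RPKM in liver (at least 15414-fold lower in jejunum). These 3 genes had no more than 2.87 RPKM in any jejunum library. The higher complement genes were Cd55, C7 and Cfd. Cd55, which protects a cell's own surface, had 5.78, 7.76 and 3.54 RPKM in jejunum, against 0.205, 0.0398 and 0.183 RPKM in liver (log2 fold change 5.33, SE 0.63, adjusted p = 8.13e-05). Cfd, factor D or adipsin, a product of fat cells, had 823, 161 and 1129.5 RPKM in jejunum, against 62.7, 35.8 and 87.9 RPKM in liver (log2 fold change 3.50, SE 0.66, adjusted p = 0.00154). Cfd was lowest in jejunum library 2, as the adipocyte markers were, and their part in it was not tested.

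Antimicrobial genes of the gut lumen leaned toward jejunum. Of 16 antimicrobial and mucosal genes tested, 9 were higher and 5 lower (median 3.14), and 20 more are listed for jejunum alone and 6 for liver alone. Among those, the Paneth cell alpha-defensin Defa24 had 3520.5, 11032 and 1437 RPKM. Lysozyme (Lyz2), also a macrophage product, had 388, 3114 and 281 RPKM in jejunum, against 106, 76.02 and 70.7 RPKM in liver (log2 fold change 3.90, SE 0.86, adjusted p = 0.00397; log2 fold change 2.06 without jejunum library 2). Pla2g2a, a bactericidal phospholipase of Paneth cells, had 209.9, 1081 and 130.4 RPKM in jejunum, against 15.2, 5.36 and 13.2 RPKM in liver (log2 fold change 5.41, SE 0.84, adjusted p = 4.71e-04; log2 fold change 4.01 without jejunum library 2). All 3 were highest in jejunum library 2, the library with the highest Paneth marker sum, and how far cell numbers set them was not tested. Reg3b, a lectin of the gut barrier, had 67.97, 48.8 and 52.9 RPKM in jejunum, against 0, 0 and 0 RPKM in liver (at least 104-fold higher in jejunum). Trefoil factor 3 (Tff3), a goblet cell peptide, had 187, 684 and 1043 RPKM in jejunum, against 2.06, 1.33 and 0.916 RPKM in liver (log2 fold change 8.79, SE 0.75, adjusted p = 9.34e-06). The polymeric immunoglobulin receptor (Pigr), which carries IgA into gut lumen and bile, was lower in jejunum, with 23.2, 152 and 75.9 RPKM in jejunum, against 434, 1640.2 and 992 RPKM in liver (log2 fold change -3.61, SE 0.75, adjusted p = 0.00278; log2 fold change -4.34 without jejunum library 2). Lipocalin 2 (Lcn2), which starves bacteria of iron, was high in liver library 2 alone, with 1.46, 0.265 and 0 RPKM in jejunum, against 0.357, 456 and 2.07 RPKM in liver (log2 fold change -7.88, SE 2.20, adjusted p = 0.0144; log2 fold change -9.50 without jejunum library 1, -7.29 without jejunum library 2, -8.47 without liver library 1 and -8.47 without liver library 3). Lcn2 was not called without jejunum library 2 or 3 (adjusted p = 0.05197 to 0.0624). Without liver library 2 it was under the filter on low counts.

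Immune cell genes were divided, with macrophage genes mostly lower in jejunum and most lymphocyte and antigen presentation genes not called. Of 32 macrophage and Kupffer cell genes, 25 were lower in jejunum and 2 higher (median -2.48; with library totals 14 lower and 6 higher). Vsig4, the complement receptor of Kupffer cells, had 0.0614, 0 and 0 RPKM in jejunum, against 67.03, 55.8 and 70.3 RPKM in liver (3047 times lower in jejunum, 95% counting interval 546 to 120430). The lectin Clec4f, specific to Kupffer cells in rodents, is listed for liver alone, at 282, 189 and 346 RPKM. Among MHC class II genes 10 of 13 did not pass the test, including the invariant chain Cd74 with 139, 159.5 and 244 RPKM in jejunum, against 183, 173 and 278 RPKM in liver (log2 fold change -0.22, SE 0.33, adjusted p = 0.620; log2 fold change 0.02 without liver library 3). The median of the list was -0.22, but 1.402 with library totals, when 9 of these genes were higher, and 0.03 without jejunum library 1 and 0.02 without liver library 3. Of 22 T and natural killer cell genes, 5 (22.7%) were lower, near the 21.3% of all genes tested, and 2 (9.1%) were higher, against 22.6%. Their median was -0.73 (0.90 with library totals). The number lower was 2 without jejunum library 2 or liver library 3, and 3 without jejunum library 1, liver library 1 or liver library 2; the number higher was 1 without liver library 3. Granulocyte and mast cell genes were split, with 4 higher and 4 lower of 11. Their median of -1.09 became 0.54 with library totals and 0.055 to 1.45 without jejunum library 2 or 3 or liver library 1, 2 or 3. Of 11 B and plasma cell genes, 3 were lower and 2 higher (median 0.50). The number higher was 1 without jejunum library 1 or 3 or liver library 1, 2 or 3, and 3 without jejunum library 2. The median was -0.05, -0.79 and -1.22 without jejunum library 1, 2 and 3, and -0.61 without liver library 3. The joining chain of IgA (Jchain) did not pass the test, with 9.22, 5.65 and 45.2 RPKM in jejunum, against 8.93, 6.41 and 3.83 RPKM in liver (log2 fold change 1.61, SE 0.77, adjusted p = 0.116; log2 fold change 0.29 without jejunum library 3). Jchain passed the test without jejunum library 2 (adjusted p = 0.0357).

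Signals and sensors of immunity showed a few genes on each side. Of 36 cytokines and chemokines, 8 (22.2%) were higher and 13 (36.1%) lower, with a median of -0.56 (1.07 with library totals). Of all genes tested, 22.6% were higher and 21.3% lower, so the share higher was near that of all genes. Ccl28, an epithelial chemokine that draws IgA plasma cells, had 4.37, 10.8 and 2.86 RPKM in jejunum, against 0, 0 and 0.0766 RPKM in liver (292 times higher in jejunum, 95% counting interval 52.1 to 11554). Ccl25, which draws T cells to the small intestine, is listed for jejunum alone, at 42.2, 125 and 45.9 RPKM. Ccl9, a myeloid chemokine, had 4.77, 1.51 and 2.78 RPKM in jejunum, against 746, 1216 and 1189 RPKM in liver (log2 fold change -8.45, SE 0.60, adjusted p = 2.86e-06). Of 44 microbial sensors, 5 (11.4%) were higher and 11 (25%) lower, the share lower being near that of all genes. Their median was -0.53 (1.09 with library totals), and 7 were lower without liver library 3. The higher ones held parts of the inflammasome: Casp1, its protease, had 24.02, 63.2 and 56.3 RPKM in jejunum, against 6.85, 5.06 and 8.87 RPKM in liver (log2 fold change 2.79, SE 0.41, adjusted p = 3.18e-04). Pycard, its adaptor, had 26.01, 177 and 77.5 RPKM in jejunum, against 12.8, 8.896 and 11.7 RPKM in liver (log2 fold change 3.07, SE 0.59, adjusted p = 0.00171; log2 fold change 2.25 without jejunum library 2). Lbp, the plasma protein that presents lipopolysaccharide, was lower, with 0.393, 0.194 and 1.86 RPKM in jejunum, against 318, 467 and 299 RPKM in liver (log2 fold change -9.02, SE 0.83, adjusted p = 1.44e-05; log2 fold change -8.41 without jejunum library 2 and -10.22 without jejunum library 3).

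The same contrast in the rats given antibiotics, in libraries that the saline comparison did not use, called 4521 of 13937 genes higher in jejunum (32.4%) and 4166 lower (29.9%). Of 5752 genes called in saline rats and tested in antibiotics rats, 5566 had the same direction, 4972 were called the same way and 28 were called the opposite way. Cyp3a9 had a log2 fold change of 2.76 (SE 0.43, adjusted p = 4.82e-04) in antibiotics rats and 1.10 in saline rats. Slc51a had 7.62 (SE 0.62, adjusted p = 8.14e-06) in antibiotics rats and 9.51 in saline rats. Fabp1 had -3.08 (SE 0.25, adjusted p = 8.80e-06) in antibiotics rats and -2.29 in saline rats. These 3 kept their direction. Cyp1a1 had 2.20 (SE 0.90, adjusted p = 0.0595) in antibiotics rats, where it did not pass the test, and 5.46 in saline rats. Aldh1b1 likewise had 0.89 (SE 0.51, adjusted p = 0.157) in antibiotics rats, not called, and 3.66 in saline rats. Whether the tissue difference of these genes itself differed between the treatments was not tested.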

How the data were processed

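Per the labels' protocols, libraries were made from polyadenylated RNA of rat liver and jejunum and read from both ends. Tools named in the submitters' processing notes are HISAT2 2.0.5, CASAVA 1.4 and DESeq2 1.20.0; the build, the counting tool and its strand setting are not given in the sources used here, so overlapping and antisense genes cannot be separated. Per the file headers, each tissue has its own table with a normalized count (signal) and FPKM per library, and with the authors' log2 fold change and p-value for antibiotics over saline; of these the deposited FPKM, log2 and p-value columns were not used. Tested on the values, the deposited count signal is whole reads divided by 1 factor per library (100% whole within 0.01), so reads were recovered and both tissues were scaled together. Genes in 1 table alone have levels but no test.

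The 3 jejunum and 3 liver saline libraries were compared with edgeR 4.0.16 in R 4.3.3 (TMM, filterByExpr, quasi-likelihood test, Benjamini-Hochberg threshold 0.05, no covariate). Tested on simulated data for this comparison (13262 genes), the test recovered 6% of 100 genes changed by 1 on the log2 scale. It recovered 74% of 100 changed by 2, with 3 unchanged genes called. No other gene differed in the simulation, and changes were even up and down, while the data gave 2991 higher and 2825 lower genes. The adjusted threshold is stricter when few genes differ, so these percentages do not measure recovery in the data. Named genes were the 8 largest log2 fold changes per direction among called genes averaging at least 5 CPM, without overlap or a placeholder symbol. Added to these were up to 4 called members per direction and 2 uncalled members of each list by level. A fixed set of drug, bile acid and nutrient genes was added too. The text gives 112 tested genes of that rule and 13 others, chosen after their values were seen; some genes of the rule are not reported here. Members and lists were chosen with earlier results of these data known. Counting intervals are exact 95% intervals; a library at 0 reads was set to 3 reads for bounds. Shared replicate numbers do not pair samples by any label. Alternatives changed scaling, filter, test, pseudocount and libraries.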

Additional observations from a re-analysis of the deposited data

Results flagged for a closer look

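A pair of named genes, Abcf1 and Slc2a12, changed sides between treatments in every library, which was not tested as a difference. Abcf1, an ABC family protein of translation, had a log2 fold change of jejunum over liver of -0.559 in antibiotics rats and 0.678 in saline rats. In saline rats Abcf1 did not pass the test, and it stayed uncalled with any 1 library left out. Slc2a12, a glucose carrier, had 0.459 in antibiotics rats and -1.83 in saline rats. Slc2a12 was not called in saline rats without liver library 3 (adjusted p = 0.0591, edgeR).

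Mitochondrial genes, left out of the comparison, took 63.0%, 26.8% and 80.7% of recovered reads in jejunum libraries 1, 2 and 3, and 25.0%, 6.42% and 16.0% in liver libraries 1, 2 and 3. Abundant genes listed for 1 tissue alone, which no comparison uses, include the Paneth cell defensins Defa24 and Defa9, with mean levels of 5330 and 3494 RPKM in jejunum. Spink1l and Cyp2c13 averaged 2890.1 and 1942 RPKM in liver.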

How the results depend on the processing

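Among the alternatives run, scaling by library totals moved the counts of genes by over 1.5 times, to 9052 higher and 961 lower in saline rats and to 10544 higher and 1231 lower in antibiotics rats. In the same setting Cd74 (1.402) and Por (0.58) changed sign on the log2 scale, and Apoa1, Dgat2, Fabp1, Hnf4a, Nr0b2, Nr1i2 and Slc2a12 were no longer called, while Abcf1, Abcg5, Cyp2j4, Jchain and Mttp were. List medians that changed sign with library totals were sulfotransferases (0.0020), receptors (0.78), fatty acid synthesis (0.45), fatty acid oxidation (0.11), ABC transporters (1.32), sugar genes (1.58), vitamin, metal and ion genes (0.75), T and natural killer cells (0.90), cytokines (1.07), microbial sensors (1.09), MHC class II (1.402), granulocytes and mast cells (0.54), endothelial markers (1.34) and pancreatic acinar markers (0.93). The bile acid transport median was -0.31 with no filter and -0.16 to 0.22 with 1 library left out. The sugar median was 0.053 with mitochondrial genes kept, 0.041 with no filter, 0.28 with the spread over 12 libraries and -0.043 to 0.45 with 1 library left out. The B and plasma cell median was -1.03 with mitochondrial genes kept, -0.57 with no filter, -0.36 by limma-voom, -0.0091 by limma at pseudocount 0.1, -0.17 with the replicate block and -1.22 to 1.24 with 1 library left out. The granulocyte and mast cell median was 0.68 with no filter, 0.29 with the spread over 12 libraries and -0.18 to 1.45 with 1 library left out, and the MHC class II median was -0.43 to 0.026 with 1 library left out. The cause of these shifts was not tested. With library totals the median of all genes moved too, from 0.02 to 1.64, and each list median named for that setting stayed below it. With 1 library left out, 2195 to 3051 genes were higher and 2164 to 2620 lower in saline rats, and 3919 to 4439 higher and 3695 to 4240 lower in antibiotics rats. The replicate block gave 2748 higher and 2678 lower in saline rats, and Abcc3, Apoa4, Ces2c, Lcn2 and Por were not called under it. In saline rats, same-numbered jejunum and liver libraries correlated at -0.01 to 0.01 in their deviations, so the numbers were not taken as pairs. In antibiotics rats, same-numbered libraries correlated at 0.061 to 0.17 and differently numbered ones at -0.12 to 0.039. That contrast was also fitted without pairs, and its replicate block gave 4463 higher and 4215 lower genes. Whether shared numbers mark the same rat was not tested. DESeq2 called 3297 higher and 2940 lower in saline rats. Lcn2 and Ces2c were not called by limma-voom or by limma at any of the 3 pseudocounts, where Lcn2 had a log2 fold change of -4.58 to -2.17. Ugt1a6 was called by DESeq2, limma-voom and limma at all 3 pseudocounts (adjusted p = 0.0218 to 0.0312). Abcf1 was called with RLE size factors, mitochondrial genes kept, DESeq2, limma at all 3 pseudocounts and the spread over 12 libraries (adjusted p = 0.0149 to 0.0495). Fasn was called by limma at pseudocount 1, Abcc3 and Apoa4 were not called with no filter, and Apoa4 was not called with the spread over 12 libraries. Jejunum library 3, with 3101949 reads on joined nuclear genes, was the shallowest, so a low jejunum level is least likely to be seen there.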
